A study of Mus musculus with 6 samples.

Results

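Genes that encode growth and survival factors for leukocytes were examined in mammary fibroblasts, namely *Csf1*, *Il34*, *Kitl*, *Flt3l*, *Il7*, *Il15*, *Tslp*, *Tnfsf13b* and *Thpo*. They were chosen by symbol, and all 9 had a row among the 27179 genes of the count table. CD34hi and CD34lo fibroblasts were sorted as Lin-CD24-Pdgfra+ cells from the mammary glands of pubertal FVB/N mice (FVB/NJ in the methods of the study), 6 weeks of age, where Lin- means depleted of CD45+, CD31+ and TER-119+ cells. Mice were pooled in pairs, 3 pools of 2, and both populations of a pool were sequenced, giving 6 libraries, 3 of each population. The study compared populations that differ in surface CD34, and the question here is which leukocyte factors differ with it.

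Tissue leukocytes depend on factors made by the stroma around them. CSF1 and IL-34 both bind the receptor encoded by *Csf1r* and keep macrophages alive, and macrophages gather around the growing terminal end buds of the pubertal gland. KITL (stem cell factor) acts through KIT on mast cells and progenitors, FLT3L on dendritic cells, and thrombopoietin, the product of *Thpo*, on megakaryocytes and stem cells. IL-7 and TSLP share the receptor chain encoded by *Il7r*, IL-7 and IL-15 share the common gamma chain encoded by *Il2rg*, and BAFF, the product of *Tnfsf13b*, supports B cells.

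The deposited totals ranged from 28764779 to 52402410 counts per library, and a floor of 3 counts corresponded to between 0.0572 and 0.104 CPM, for counting error only. CPM are counts scaled to a library total of 1000000 after TMM normalization. *Cd34* itself had 634 ± 158 CPM (SD, n = 3) in CD34lo and 2571 ± 75.2 CPM (SD, n = 3) in CD34hi fibroblasts, and the 6 fibroblast markers summed to 49210 to 54720 CPM in CD34lo and 28570 to 36110 CPM in CD34hi libraries, with 5 of them higher in CD34lo and *Dcn* not past the threshold. Of 14 leukocyte markers, 12 had a mean under 1 CPM in both populations, and *Ptprc*, which encodes CD45, had between 1 and 13 counts per library. The list summed to between 6.59 and 10.3 CPM in CD34lo and between 15.5 and 18.7 CPM in CD34hi libraries, of which *Cd3e*, called higher in CD34hi, made 3.77 and 14.9 CPM on average. *Lyz2* (0.967 and 0.238 CPM) and *Cd79a* (1.82 and 0.874 CPM) were called higher in CD34lo. With 8, 13 and 8 counts in the CD34hi libraries, *Lyz2* passed the filter on low counts only through the CD34lo libraries. The call of *Lyz2* is therefore not independent of that filter. Endothelial markers moved apart, with *Pecam1*, *Cdh5*, *Emcn* and *Erg* higher in CD34lo and *Kdr* and *Tek* higher in CD34hi. The list summed to 48.5 to 81.6 CPM in CD34lo and 533.8 to 691.7 CPM in CD34hi libraries. Of these sums, *Tek* made 35.1 and 543.1 CPM and *Kdr* 6.06 and 53.1 CPM on average, so the higher sum in CD34hi came from these genes. Pericyte markers summed to 68.9 to 93.2 CPM in CD34lo and 36.8 to 49.1 CPM in CD34hi libraries, with 4 of 5 higher in CD34lo and *Kcnj8* higher in CD34hi. The sums in CD34lo and CD34hi libraries were 25.9 to 36.6 and 30.6 to 36.7 CPM for epithelial, 3.60 to 7.12 and 14.3 to 19.9 CPM for keratinocyte, 3.13 to 8.004 and 1.10 to 1.37 CPM for Schwann cell, 1.74 to 2.69 and 1.23 to 2.36 CPM for lymphatic endothelial and at most 1.81 and 0.635 CPM for adipocyte markers. Among the keratinocyte markers, *Krtdap* averaged 0.113 and 8.56 CPM and *Krt10* 5.18 and 8.77 CPM, and *Krt1* had 0 counts in every library. The part of these other cells in the results was not tested, and in bulk samples fewer cells that express a gene cannot be told apart from less RNA per cell.

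*Csf1*, *Kitl* and *Il34* were the most abundant members in both populations, and *Il7* was the least abundant. Levels of different genes are compared here as CPM per kilobase of gene length (RPKM). In CD34hi fibroblasts, *Csf1* had 111.5 ± 12.6 RPKM (SD, n = 3), *Kitl* 29.6 ± 3.84 RPKM and *Il34* 25.3 ± 2.82 RPKM. In CD34lo fibroblasts the same genes had 62.0 ± 19.7, 53.3 ± 9.07 and 40.7 ± 21.9 RPKM (SD, n = 3). Set among all 15219 tested genes by level per length, *Csf1* stood at percentile 94.2 in CD34lo and 96.4 in CD34hi fibroblasts, whereas *Thpo* stood at percentiles 13.6 and 17.9. *Csf1* lay above *Kitl* in every CD34hi library, with ranges of 102.5 to 126 and 25.2 to 32.2 RPKM that did not overlap, whereas *Kitl* and *Il34* overlapped there. In CD34lo libraries, the ranges of *Csf1*, *Kitl* and *Il34* overlapped, so that their order there was not separated by the spread. *Flt3l* came next, with 12.6 ± 1.99 RPKM in CD34lo and 12.8 ± 2.27 RPKM in CD34hi fibroblasts (SD, n = 3). *Tnfsf13b* and *Il15* followed with overlapping ranges in each population, at 6.26 and 5.13 RPKM in CD34lo and 5.33 and 6.06 RPKM in CD34hi fibroblasts. *Tslp* (1.58 and 3.64 RPKM), *Thpo* (0.423 and 0.491 RPKM) and *Il7* (0.108 and 0.0627 RPKM) were lower, each apart from its neighbours in the order.

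**Figure D1:**
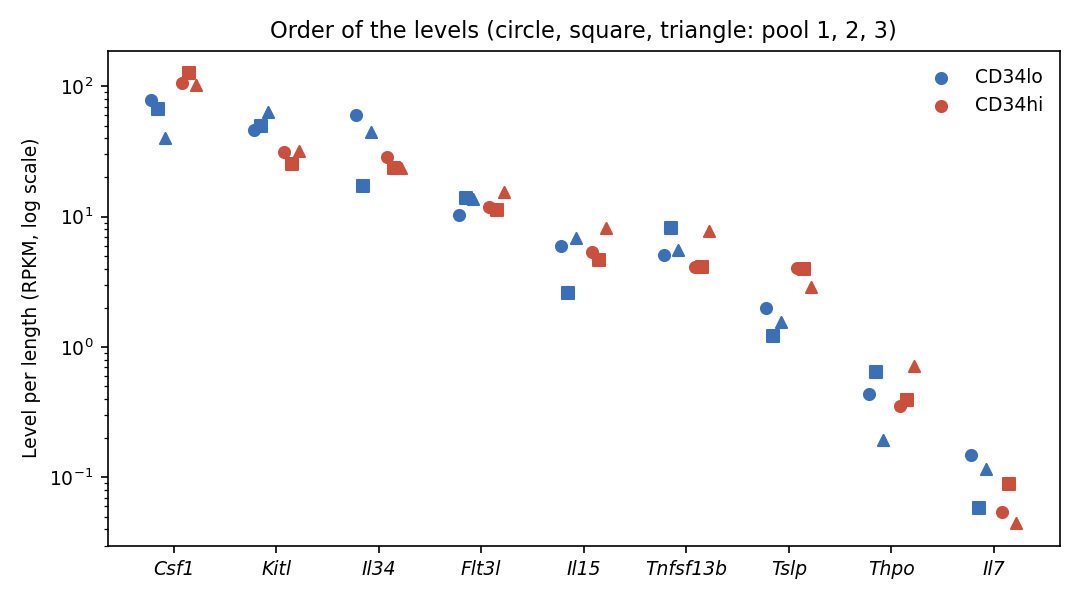
Level per length of the 9 members in each library, in RPKM on a log axis, for CD34lo (blue) and CD34hi (red) fibroblasts, with the mouse pool given by the symbol shape. *Csf1*, *Kitl* and *Il34* lie at the top and *Il7* at the bottom in both populations.

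Between the populations, 8 of the 9 members passed the filter on low counts and were tested. *Csf1* and *Tslp* were higher in CD34hi fibroblasts, *Kitl* was higher in CD34lo fibroblasts, and *Il34*, *Flt3l*, *Il15*, *Tnfsf13b* and *Thpo* did not pass at an adjusted p-value under 0.05 (quasi-likelihood test in edgeR, adjusted by Benjamini-Hochberg over all genes tested). In the same fit, 35.6% of all tested genes passed, 16.9% of them higher in CD34hi and 18.7% higher in CD34lo as shares of the tested genes, so that the 3 of 8 members called are read against that share. The median log2 fold change was 0.12 over the 8 members and -0.0064 over all tested genes. Log2 fold changes are given as CD34hi vs CD34lo.

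**Figure D2:**
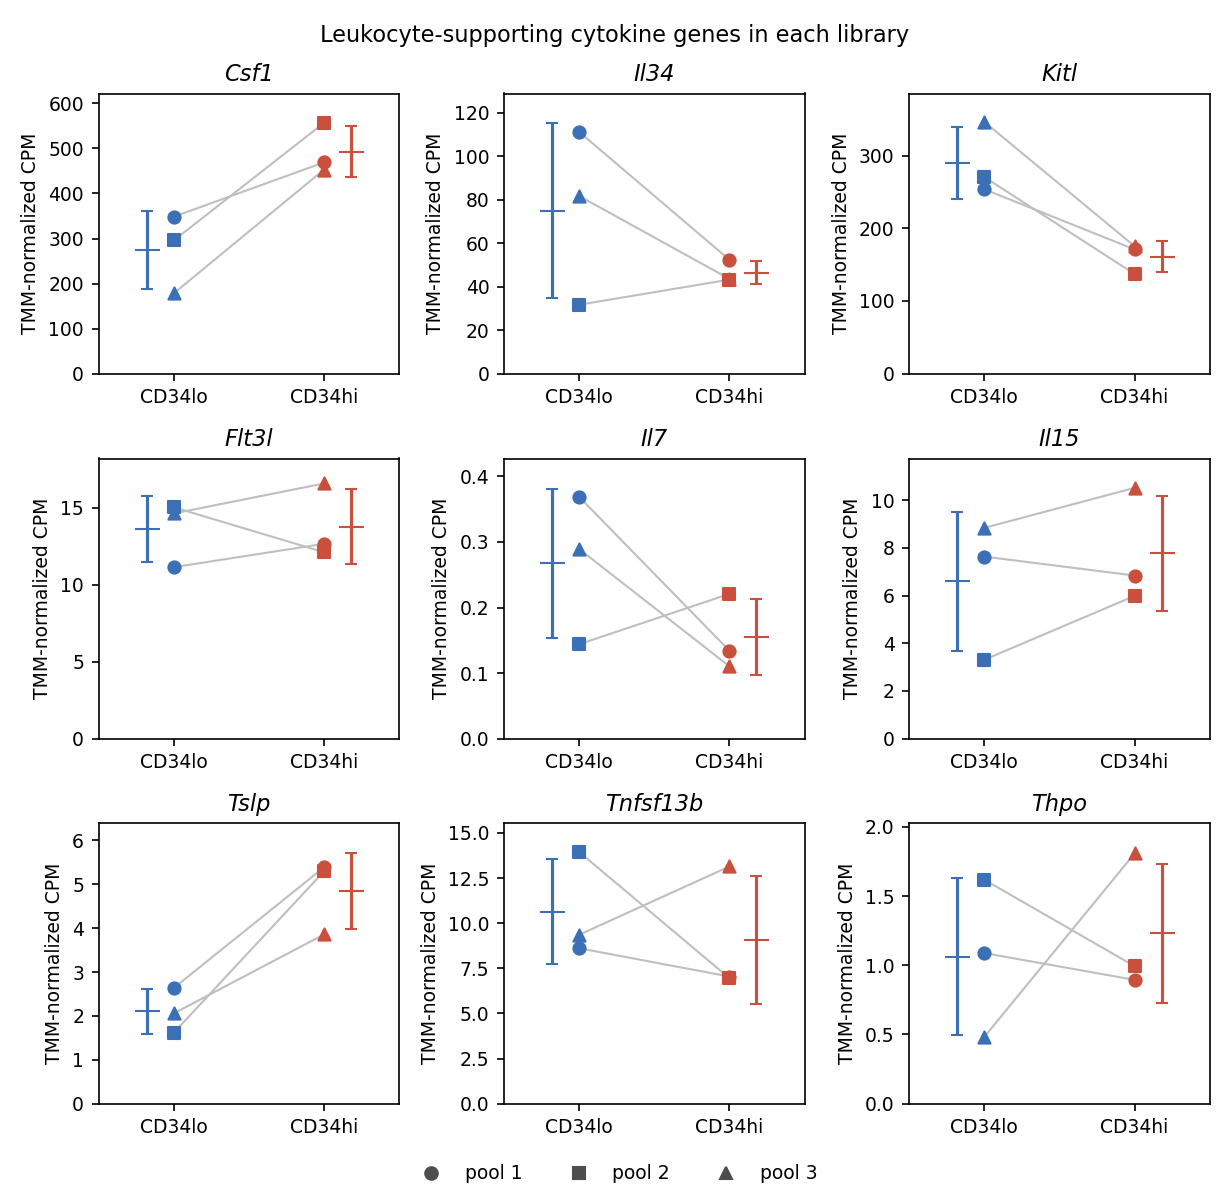
TMM-normalized CPM of each member in the 6 libraries, with grey lines joining both populations of a mouse pool and bars giving the mean and SD of 3 libraries. All 3 CD34hi libraries lie above all 3 CD34lo libraries for *Csf1* and *Tslp* and below them for *Kitl*, and the populations overlap for the other members. Such a separation, in either direction, occurs in 50.1% of all tested genes.

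*Csf1* (gene 12977, GRCm38 chromosome 3, 107741048 to 107760469) encodes the main growth factor of macrophages. The CD34lo libraries of pools 1, 2 and 3 had 348.5, 295.8 and 178.3 CPM, and the CD34hi libraries had 469.1, 557.0 and 453.2 CPM. Every CD34hi library was above every CD34lo library, as in 50.1% of all tested genes when either direction is counted. The level was 1.80-fold higher in CD34hi fibroblasts (edgeR log2 fold change 0.85 ± 0.23 SE, adjusted p = 0.0205). The difference had the same direction in all 3 pools, with log2 differences of 0.43, 0.91 and 1.34. Without pool 2 the adjusted p was 0.103, and without the CD34hi library of pool 2 it was 0.0698, with log2 fold changes of 0.81 and 0.76 in the same edgeR test. GENCODE lists 6 coding transcripts of *Csf1* with between 163 and 552 codons, and counts per gene do not separate the membrane-bound from the secreted forms.

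*Il34* (gene 76527, chromosome 8, 110741829 to 110805903), which encodes the other ligand of the same receptor, varied most among the CD34lo libraries. These had 111.2, 31.7 and 81.7 CPM in pools 1, 2 and 3, against 52.4, 43.2 and 43.6 CPM in the CD34hi libraries. The CD34lo level was the higher one in pools 1 and 3 and the lower one in pool 2, so the populations overlapped. The log2 fold change was -0.69 (95% interval -1.53 to 0.14, adjusted p = 0.178 in edgeR). It was -1.06 without the CD34lo library of pool 2 (adjusted p = 0.00245) and -1.005 without both libraries of pool 2 (adjusted p = 0.0128), both in the edgeR test. Whether *Il34* passed therefore turned on 1 library.

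Within a library, the ratio of *Il34* to *Csf1* per length does not depend on how libraries are scaled. It was 0.768, 0.258 and 1.10 in the CD34lo libraries of pools 1, 2 and 3, and 0.269, 0.187 and 0.232 in the CD34hi libraries. *Il34* thus exceeded *Csf1* in 1 library, CD34lo of pool 3, and the CD34lo library of pool 2 lay within the CD34hi range. The mean log2 ratio was 1.41 lower in CD34hi fibroblasts (-2.14 ± 0.26 against -0.73 ± 1.09, SD, n = 3; two-sided exact permutation p = 0.2, Benjamini-Hochberg adjusted p = 0.2 over 3 ratios). The smallest p that 3 libraries against 3 allow is 0.1. This test leaves the pairing by pool aside, and within pools 1, 2 and 3 the log2 ratio differed by -1.52, -0.46 and -2.25, lower in CD34hi in 3 of 3 pools.

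*Kitl* (gene 17311, chromosome 10, 100015824 to 100100412), the gene of stem cell factor, went the other way. It had 253.7, 270.6 and 346.5 CPM in the CD34lo libraries of pools 1, 2 and 3 and 171.0, 137.1 and 175.3 CPM in the CD34hi libraries. The lowest CD34lo library was above the highest CD34hi library, a separation seen in either direction in 50.1% of all tested genes. The level was 1.80-fold higher in CD34lo fibroblasts (edgeR log2 fold change -0.85 ± 0.16 SE, adjusted p = 0.00348). Its adjusted p stayed between 1.35e-05 and 0.0311 over 17 alternatives, among them each pool and each library left out (edgeR, limma-voom or DESeq2). The fibroblast and the pericyte markers were also higher in CD34lo libraries in sum, and their part in the *Kitl* difference was not tested. Coding transcripts of *Kitl* in GENCODE number 4, with up to 273 codons, and the counts do not separate them.

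*Flt3l* (gene 14256, chromosome 7, 45131189 to 45136432) was at a like level in both populations. The CD34lo libraries of pools 1, 2 and 3 had 11.1, 15.03 and 14.6 CPM and the CD34hi libraries 12.7, 12.1 and 16.6 CPM. The ranges overlapped, and the log2 fold change was 0.023, with a 95% interval of -0.38 to 0.43 (adjusted p = 0.935 in edgeR).

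*Tslp* (gene 53603, chromosome 18, 32815383 to 32819799) encodes an alarmin-like cytokine that acts on dendritic cells and innate lymphoid cells. It had 2.64, 1.62 and 2.06 CPM in the CD34lo libraries of pools 1, 2 and 3 and 5.39, 5.30 and 3.86 CPM in the CD34hi libraries. All 3 CD34hi libraries were above all 3 CD34lo libraries, and 50.1% of all tested genes were separated in this way in either direction. The counts behind these values were between 45 and 241 per library. The level was 2.28-fold higher in CD34hi fibroblasts (edgeR log2 fold change 1.19 ± 0.25 SE, adjusted p = 0.00621). In the 3 pools the log2 differences were 1.02, 1.68 and 0.89. Without pool 2, the log2 fold change was 0.97 and the adjusted p was 0.0624 in the edgeR test. Among the tested members, *Tslp* had the largest log2 fold change at a level below that of *Csf1*, *Kitl*, *Il34*, *Flt3l*, *Tnfsf13b* and *Il15*.

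*Il15* (gene 16168, chromosome 8, 82331624 to 82402586), which supports natural killer cells and memory CD8+ T cells, had 7.64, 3.31 and 8.84 CPM in the CD34lo libraries of pools 1, 2 and 3. In the CD34hi libraries it had 6.84, 5.99 and 10.5 CPM. In both populations pool 2 was lowest and pool 3 highest. The log2 fold change was 0.23 (95% interval -0.57 to 1.04, adjusted p = 0.646 in edgeR), and it turned to -0.081 without the CD34lo library of pool 2 and to -0.040 without the CD34hi library of pool 3.

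*Tnfsf13b* (gene 24099, chromosome 8, 10006633 to 10036000), the BAFF gene, had 8.61, 13.9 and 9.36 CPM in CD34lo and 7.04, 6.95 and 13.1 CPM in CD34hi libraries of pools 1, 2 and 3. It was higher in CD34lo in pools 1 and 2 and higher in CD34hi in pool 3. The log2 fold change was -0.23 (95% interval -0.88 to 0.43, adjusted p = 0.581 in edgeR), and 0.17 without pool 2.

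*Thpo* (gene 21832, chromosome 16, 20724454 to 20734511) and *Il7* (gene 16196, chromosome 3, 7572077 to 7613427) were scarce. *Thpo* had 59, 45 and 15 counts in CD34lo and 40, 36 and 82 counts in CD34hi libraries of pools 1, 2 and 3, or between 0.482 and 1.81 CPM. Its log2 fold change was 0.22 (95% interval -0.86 to 1.30, adjusted p = 0.751 in edgeR) and turned to -0.50 without pool 3. *Chrd* overlaps *Thpo* on the opposite strand and had 8879 counts against 277. The strand setting of the counting is not given in the sources used here, and without strand, reads of these genes cannot be told apart. *Il7*, the lymphocyte survival factor, had 20, 4 and 9 counts in CD34lo and 6, 8 and 5 counts in CD34hi libraries and did not pass the filter. An opposite-strand gene at *Il7* had 14 counts against 52. Fitted without the filter, the log2 fold change of *Il7* was -0.79 with a 95% interval of -2.30 to 0.71 (adjusted p = 0.441 in edgeR).

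**Figure D3:**
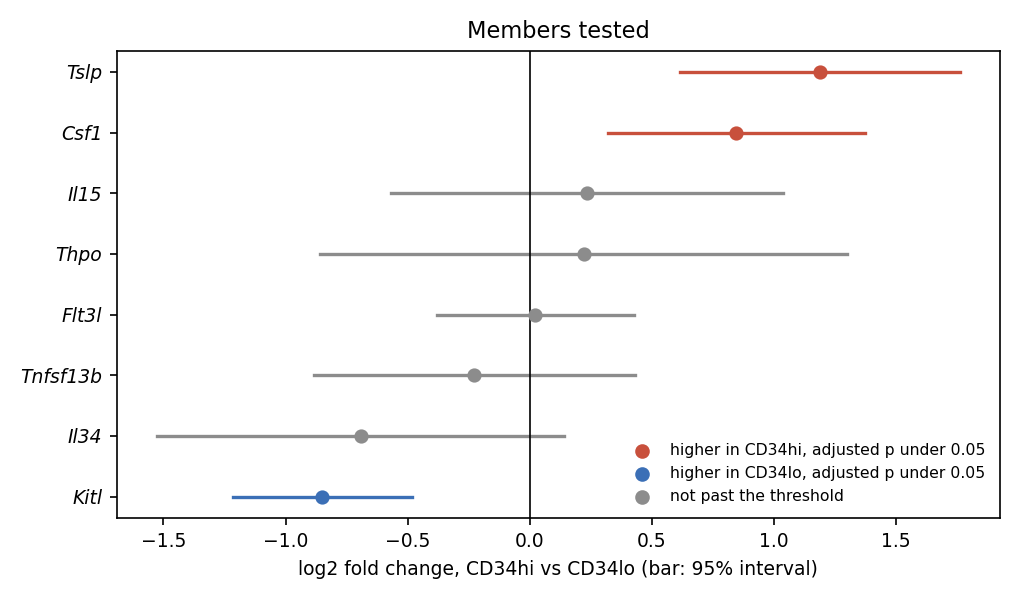
Log2 fold change, CD34hi vs CD34lo, of the 8 tested members from edgeR, with 95% intervals that are not adjusted for the number of genes. *Tslp* (1.19) and *Csf1* (0.85) lie to the right of 0 and *Kitl* (-0.85) to the left, and the intervals of the other 5 members include 0.

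As a share of the summed level per length of the 9 members, *Csf1* made 37.6%, 41.7% and 22.9% in the CD34lo libraries of pools 1, 2 and 3 and 55.4%, 63.3% and 53.0% in the CD34hi libraries. *Kitl* made 22.2%, 30.9% and 36.1% in CD34lo and 16.4%, 12.6% and 16.6% in CD34hi libraries. *Csf1* was thus the largest share in 5 of the 6 libraries and *Kitl* in the CD34lo library of pool 3. The summed CPM of the 9 members overlapped, with 633.7 to 745.0 CPM in CD34lo and 718.1 to 768.9 CPM in CD34hi libraries.

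**Figure D4:**
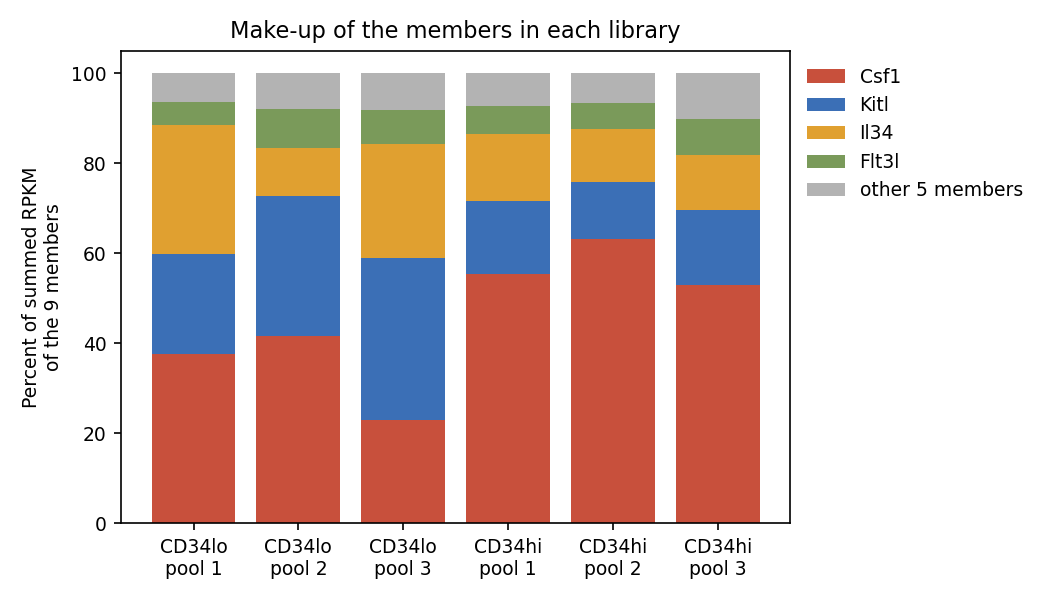
Stacked bars of the percent of the summed RPKM of the members in each library. *Csf1*, *Kitl*, *Il34* and *Flt3l* are drawn singly and the remaining members together. *Csf1* (red) makes at least 53.0% in the CD34hi libraries and at most 41.7% in the CD34lo libraries.

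For the pairs that share a receptor chain, *Tslp* was at 13.0, 18.8 and 12.6 times the level per length of *Il7* in the CD34lo libraries of pools 1, 2 and 3 and at 69.0, 42.1 and 59.2 times in the CD34hi libraries. The groups did not overlap, and the mean log2 ratio was 1.94 higher in CD34hi (two-sided exact permutation p = 0.1, the smallest that 3 libraries against 3 allow, and adjusted p = 0.2 over 3 ratios). The level of *Tslp* alone also separated the populations, as did 50.1% of all tested genes when either direction is counted. The ratio rests on 4 to 20 counts of *Il7* per library. The log2 ratio of *Il15* to *Il7* was 5.46 ± 0.29 in CD34lo and 6.50 ± 0.88 in CD34hi fibroblasts (SD, n = 3), and the groups overlapped (two-sided exact permutation p = 0.2, adjusted p = 0.2), although it was higher in CD34hi in 3 of 3 pools, by 1.22, 0.32 and 1.58.

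The receptors of these factors were mostly scarce in the sorted cells. Of 14 receptor genes, 6 did not pass the filter, among them *Il7r*, *Tnfrsf13c*, *Tnfrsf17*, *Flt3* and *Tnfrsf13b*, with totals over the 6 libraries of 12, 10, 7, 3 and 3 counts. *Csf1r*, the macrophage receptor gene, had 1.05 ± 0.21 CPM in CD34lo and 0.544 ± 0.27 CPM in CD34hi fibroblasts (SD, n = 3), far below its ligand *Csf1* also per length, at 0.271 and 0.141 RPKM. Its log2 fold change of -0.96 did not pass (adjusted p = 0.115 from edgeR). Of the 8 tested receptor genes, 3 were higher in CD34hi, 1 was higher in CD34lo and 4 did not pass, and their median log2 fold change was 0.30. Over all tested genes, 16.9% were higher in CD34hi and 18.7% higher in CD34lo, and these counts are read against those shares.

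*Il15ra*, which encodes the chain that presents IL-15 on the surface of the producing cell, was the most abundant receptor gene per length in CD34hi fibroblasts. It had 18.04, 19.7 and 15.2 CPM in CD34lo and 41.1, 41.0 and 34.2 CPM in CD34hi libraries of pools 1, 2 and 3. The populations did not overlap, as in 50.1% of all tested genes when either direction is counted. The level was 2.19-fold higher in CD34hi fibroblasts (log2 fold change 1.13, SE 0.14, edgeR adjusted p = 0.000345), while *Il15* itself did not pass. *Crlf2*, the specific chain of the TSLP receptor, had 16.5 ± 1.58 CPM in CD34lo and 18.7 ± 1.74 CPM in CD34hi fibroblasts (SD, n = 3) and a log2 fold change of 0.18 (95% interval -0.13 to 0.48). Its partner chain *Il7r* was at the floor.

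*Sdc1*, which encodes syndecan-1, and *Ptprz1*, which encodes a receptor-type phosphatase, have both been described as further receptors of IL-34. *Sdc1* had 335.7, 131.3 and 285.6 CPM in CD34lo and 31.9, 21.2 and 29.8 CPM in CD34hi libraries of pools 1, 2 and 3. It was 9.07-fold higher in CD34lo fibroblasts (log2 fold change -3.18, SE 0.34, edgeR adjusted p = 0.000149), and the CD34lo library of pool 2 was the lowest of the CD34lo libraries for both *Sdc1* and *Il34*. *Ptprz1* and *Il2rb*, with at most 2.93 CPM in any library, had log2 fold changes of 1.44 and 1.43 and adjusted p-values of 0.037 and 0.0499 in edgeR. *Il2rb* had 12, 14 and 5 counts in CD34lo and 31, 35 and 31 counts in CD34hi libraries of pools 1, 2 and 3. It passed the filter on low counts through the CD34hi libraries, where it was higher, so its call is not independent of that filter. *Ptprz1* did not pass in 7 of 17 alternatives, among them the fits without any 1 pool, and *Il2rb* did not pass in 10 of 16. Without pool 1, pool 2 or pool 3, only *Il15ra* of the receptor genes was called higher in CD34hi. *Kit* had between 1.06 and 2.28 CPM in 5 libraries and 5.60 CPM in the CD34hi library of pool 2, and its log2 fold change turned from 0.42 to -0.76 without that library.

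CSF1, KITL and FLT3L are made as membrane-anchored proteins that proteases release, and BAFF is cut by furin-like enzymes. Of 6 protease genes, 5 were tested, and *Adam9*, *Adam10* and *Adam17* were higher in CD34hi fibroblasts, as were 16.9% of all tested genes. *Adam10* had 37.5, 38.1 and 49.9 CPM in CD34lo and 71.2, 80.5 and 80.5 CPM in CD34hi libraries of pools 1, 2 and 3, with a log2 fold change of 0.89 (SE 0.14, edgeR adjusted p = 0.00128). *Adam17*, the gene of the sheddase TACE, had 116 ± 9.89 CPM in CD34lo and 167.1 ± 17.3 CPM in CD34hi fibroblasts (SD, n = 3), with a log2 fold change of 0.53 (adjusted p = 0.0106 from edgeR). It did not pass without pool 1 (adjusted p = 0.0591) or without pool 2 (adjusted p = 0.0804), and *Iah1* overlaps it on the opposite strand with 7765 counts against 34177. *Adam9* had a log2 fold change of 1.01. *Mmp14*, a membrane-type metalloproteinase gene, and *Furin* had log2 fold changes of -0.039 (95% interval -0.46 to 0.38) and 0.035 (95% interval -0.24 to 0.31) and did not pass. *Mmp9* had 53 counts in all and was not tested.

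A further list held 16 other cytokine genes that act on leukocyte growth or survival, of which 7 were tested, with a median log2 fold change of -0.45. *Il33* and *Lif* were higher in CD34hi, *Cxcl12* and *Tnfsf11* were higher in CD34lo, and *Il6*, *Csf3* and *Tnfsf13* did not pass. Counting either direction, 35.6% of all tested genes were called. *Il33*, which encodes an alarmin that acts on type 2 innate lymphoid cells and regulatory T cells, had 26.3, 34.7 and 32.6 CPM in CD34lo and 285.1, 284.6 and 167.0 CPM in CD34hi libraries of pools 1, 2 and 3. It was 7.88-fold higher in CD34hi fibroblasts (log2 fold change 2.98, adjusted p = 2.7e-05 from edgeR). *Cxcl12*, whose product holds progenitors and B-lineage cells in the marrow niche together with KITL, was 2.17-fold higher in CD34lo fibroblasts, at 543.7 ± 51.6 against 251 ± 61.9 CPM (SD, n = 3; adjusted p = 0.00175 from edgeR). *Lif* (log2 fold change 1.36) did not pass in 5 of 17 alternatives, and *Tnfsf11*, the RANKL gene, with at most 1.68 CPM, did not pass in 5 of 16. *Tnfsf11* lost its call without the CD34lo library of pool 1, which held 91 of its 130 counts. With 7, 7 and 1 counts in the CD34hi libraries, *Tnfsf11* passed the filter only through the CD34lo libraries. Its call is therefore not independent of that filter.

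*Csf2*, the GM-CSF gene, had 3, 0 and 0 counts in CD34lo and 34, 17 and 9 counts in CD34hi libraries of pools 1, 2 and 3. It did not pass the filter, and in the fit without the filter its adjusted p was 0.00806 in edgeR. *Tnfsf13* overlaps the same-strand gene *Tnfsfm13*, which had 581 counts against 469, so its value (log2 fold change -0.78, adjusted p = 0.0951 from edgeR) is uncertain. *Il3* and *Il9* had 0 counts in all libraries.

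**Figure D5:**
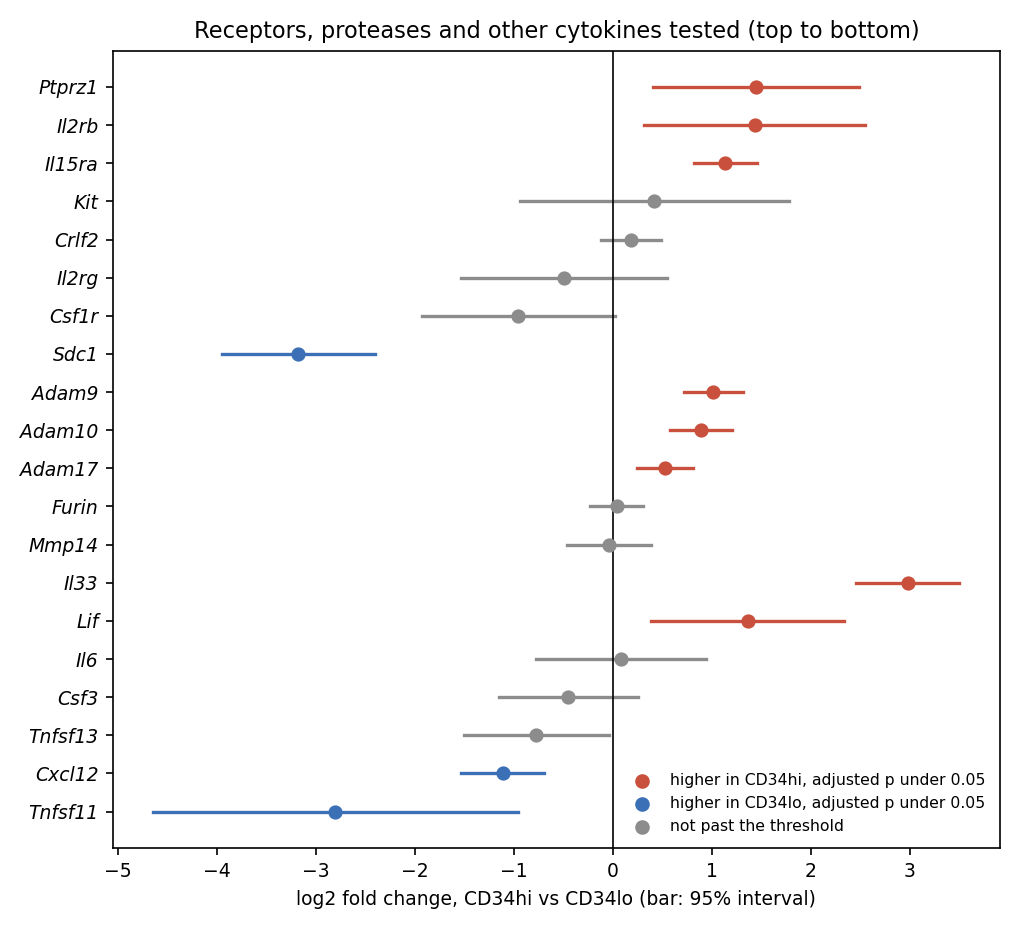
Log2 fold change, CD34hi vs CD34lo, of the tested receptor genes (top 8), protease genes (next 5) and other cytokine genes (last 7) from edgeR, with unadjusted 95% intervals. *Il33* (2.98) lies farthest to the right and *Sdc1* (-3.18) farthest to the left.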

How the data were processed

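Reads were mapped by the authors to GRCm38/mm10 and summarized per gene with Rsubread 2.2.6, and they deposited raw counts per gene and library, without normalization or a filter on low counts. The annotation, strand setting and treatment of multi-mapping reads are not given in the sources used here. Symbols came from RefSeq (GRCm38.p6), in which 25275 of 27179 genes had one, and transcripts from GENCODE vM21.

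In R 4.3.3, edgeR 4.0.16 was used to filter genes with filterByExpr by population (15219 genes kept), to scale libraries by TMM and to test CD34hi against CD34lo by quasi-likelihood. P-values were adjusted by Benjamini-Hochberg over all tested genes, and 0.05 was the threshold. Standard errors (SE) were derived from the log2 fold change and the F statistic. Log2 differences per pool used a prior count of 2, and ratios within a library added 0.5 counts to each gene. RPKM used the deposited gene lengths. The common biological coefficient of variation was 19.7%, and 14.9% in the fit with the pool as a block. Replicate libraries differed by more than the sampling noise (lowest chi-square per degree of freedom 22.3). The test was run on simulated data with known changes before use.

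Same-numbered libraries come from the same mouse pool. Their deviations from the population means correlated across genes with r of 0.279, 0.0844 and 0.243 in pools 1, 2 and 3, and a fit with the pool as a block was an alternative, since the methods of the study name no such covariate. The others were limma-voom 3.58.1 (the method of the study), DESeq2 1.42.0, upper-quartile or RLE scaling, testing without a filter, at least 10 counts in every library, and each pool or library left out.

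The members and the lists of receptors, proteases, other cytokines and cell type markers were chosen with earlier results of these data known. The text names all members, the genes of these lists that were called, and those with a value that a sentence turns on. Marker genes served as a check. The result for 1 listed gene is not reported here.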

Additional observations from a re-analysis of the deposited data

How the results depend on the processing

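In fits with a replicate block for the mouse pool, 2 members were higher in CD34hi and 1 in CD34lo in both edgeR and limma-voom, as without it. With the block in edgeR, the log2 fold change was 0.90 for *Csf1* (adjusted p = 0.00264) and 1.20 for *Tslp* (adjusted p = 0.00293). In the same fit it was -0.84 for *Kitl* (adjusted p = 0.000742) and -0.53 for *Il34* (adjusted p = 0.122). In edgeR the block changed no call among the genes of the lists, and in limma-voom *Ptprz1* passed with the block (adjusted p = 0.00874) and not without it (adjusted p = 0.0518). Over all genes, the block gave 6161 against 5411 in edgeR and 6418 against 5526 in limma-voom. Omitting 1 pool or 1 library at a time, the number of members higher in CD34hi ranged from 0 (without pool 2) to 2 and of those higher in CD34lo from 1 to 2, the receptor genes higher in CD34hi from 1 to 2, the other cytokines higher in CD34hi from 1 to 3 and in CD34lo from 1 to 2, all genes from 3468 to 5236, those higher in CD34hi from 1608 to 2456 and those higher in CD34lo from 1860 to 2780. With at least 10 counts in every library, 1 other cytokine was higher in CD34lo, since *Tnfsf11* was not tested. Upper-quartile scaling moved the median over all genes on the log2 scale from -0.0064 to -0.059. Of 136 comparisons of the 8 tested members, 119 kept both their direction and their call, 3 lost the call, 2 gained it and 12 reversed, and of 338 comparisons of 20 other genes, 296, 29, 0 and 13.

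The log2 fold changes that reversed belonged to genes that did not pass. Under the same omissions, they ranged from -0.13 to 0.19 for *Flt3l*, -0.081 to 0.49 for *Il15*, -0.68 to 0.17 for *Tnfsf13b*, -0.50 to 0.75 for *Thpo*, -0.76 to 0.93 for *Kit*, -0.20 to 0.19 for *Mmp14*, -0.054 to 0.12 for *Furin* and -0.23 to 0.38 for *Il6*. *Flt3l* was at -0.028 and *Furin* at -0.018 with upper-quartile normalization, and *Kit* at -0.027 with limma-voom. The cause was not tested. The 3 within-library ratios kept their direction in each alternative. *Il7* and 6 receptor genes were too low to pass the filter on counts.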
